A study of Mus musculus with 6 samples.

Results

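Interferon response and RNA sensing genes were followed in cultured 344SQ cells, which derive from mouse lung cancer, after transfection with a vector for either a PIK3CA short hairpin RNA (shRNA) or a control shRNA. The members were 46 named genes, and each was measured through the probe sets that the array annotation assigns to that gene symbol alone. By this rule 44 of the 46 genes were measured, with 78 of the 45101 probe sets on the array, among 18193 genes in all. Isg15 and Ifi44 had no such probe set and are not analysed here. PIK3CA shRNA cells and control shRNA cells had 3 Affymetrix arrays each. The hairpin vectors were delivered by lipid transfection, and the labels do not say whether cells were then selected, pooled or cloned. The labels do not say that replicates are independent cultures, and p-values therefore reflect the spread among these 6 arrays alone, which may be technical.

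Cells detect viral or misplaced RNA with helicases of the RIG-I family, which signal through the mitochondrial adaptor MAVS to interferon regulatory factors (IRFs) and to interferon genes. Secreted type I interferon binds the IFNAR receptor, whose associated kinases JAK1 and TYK2 activate STAT proteins, and type II interferon binds IFNGR, which uses JAK1 and JAK2. STAT and IRF complexes then bind the interferon-stimulated response element (ISRE) and the gamma-activated site (GAS) in promoters and induce effector genes that act against viruses and intracellular microbes.

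Values are linear intensities, given per array. A change is the mean of PIK3CA shRNA arrays less that of control shRNA arrays after taking log2(intensity + 16), which shrinks the change of dim genes. A gene was called when the limma fit over all 18193 genes gave a Benjamini-Hochberg adjusted p under 0.05, and adjusted p-values below come from this fit unless stated. Each gene is represented by its brightest probe set. The arrays had nearly the same distribution, with medians from 134.1 to 134.7, and Pearson's r between arrays was 0.982 to 0.984 within groups and 0.974 to 0.977 between them. Pik3ca itself, the targeted gene, averaged 1235 ± 14.5 in PIK3CA shRNA cells and 2380 ± 64.5 in control shRNA cells (SD, n = 3 each), a change of -0.94 (limma adjusted p = 0.000762), and 5 of its 6 probe sets fell. Of 12 epithelial markers, 7 were brighter than the median gene in at least 1 group, among them Krt8 at 12469 in PIK3CA shRNA cells and 11903 in control shRNA cells, and 5 were dimmer in both groups, among them the lung genes Nkx2-1 and Sftpc. The tight junction gene Ocln rose by 0.99 (limma adjusted p = 0.00346), and the other 11 did not pass. Of 10 fibroblast markers, Dcn fell by 0.75 on the log2 scale (limma adjusted p = 0.00918) and the others did not pass. Ptprc, the pan-leukocyte marker, was dim, at 58.6 in PIK3CA shRNA cells and 63.2 in control shRNA cells.

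Of the 44 measured members, 11 rose and 1 fell in PIK3CA shRNA cells. Among all genes tested, 11.5% were called, with 5.88% higher and 5.62% lower, against 27.3% of the members called. Changes were positive in 30 members and negative in 14, with a median of 0.16, while the median over all genes was -0.01. The groups did not overlap in 19 members (43.2%), against 33.1% of all genes. On the log2(intensity + 16) scale, 4 of the 44 members were called and rose at least 2-fold, namely Jak1, Xaf1, Ifih1 and Gbp2. Of all 18193 genes, 238 (1.31%) did so. By intensity alone the dim Gbp3 was also past that size, at 293% of the control mean. The 4 marker genes of the set, Ifih1, Xaf1, Gbp2 and Igtp, all rose. The members, these 4 included, were chosen with earlier results of these data known. Neither their rise nor the shares above are therefore independent support. By role, of 4 RNA sensors and their adaptor, 3 rose (75%). Of 7 interferon-inducible GTPases, 3 rose (42.9%), and of 7 receptors and receptor-bound kinases, 2 rose (28.6%). Of 9 OAS and other RNA-binding effectors, none rose and 1 fell by the limma fit, with 2 of the 9 at an unadjusted p under 0.05. That 1 of 9 is 11.1%, near the 11.5% of all genes. Of all 18193 genes, 4706 had an unadjusted limma p under 0.05.

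The count depended on every array. The number of members that rose was 4, 4 and 3 without PIK3CA shRNA replicates 1, 2 and 3, and 5, 4 and 4 without control shRNA replicates 1, 2 and 3. Calls over all genes also dropped, from 2093 to between 945 and 1138, and fits with fewer arrays have fewer residual degrees of freedom. Jak1, Ifih1 and Xaf1 kept their calls in all 6 of these fits. Gbp2 kept its call in 3 of the 6, and Igtp, Irf9 and Oas3 in 1 each. The remaining 5 members, Gbp3, Bst2, Ddx58, Mavs and Ifnar1, lost theirs in all 6, with changes of the same sign. With the replicate number as a block, 2 members rose, Jak1 and Ifih1, and none fell. Tested as separate probe sets, 9 of the 78 rose and 1 fell (12.8%), and 3 of the 9 were of Jak1. Of all 45037 probe sets tested, 4.94% were called. Those include probe sets with no gene symbol or several, so the 2 shares are not of like sets.

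**Figure D1:**
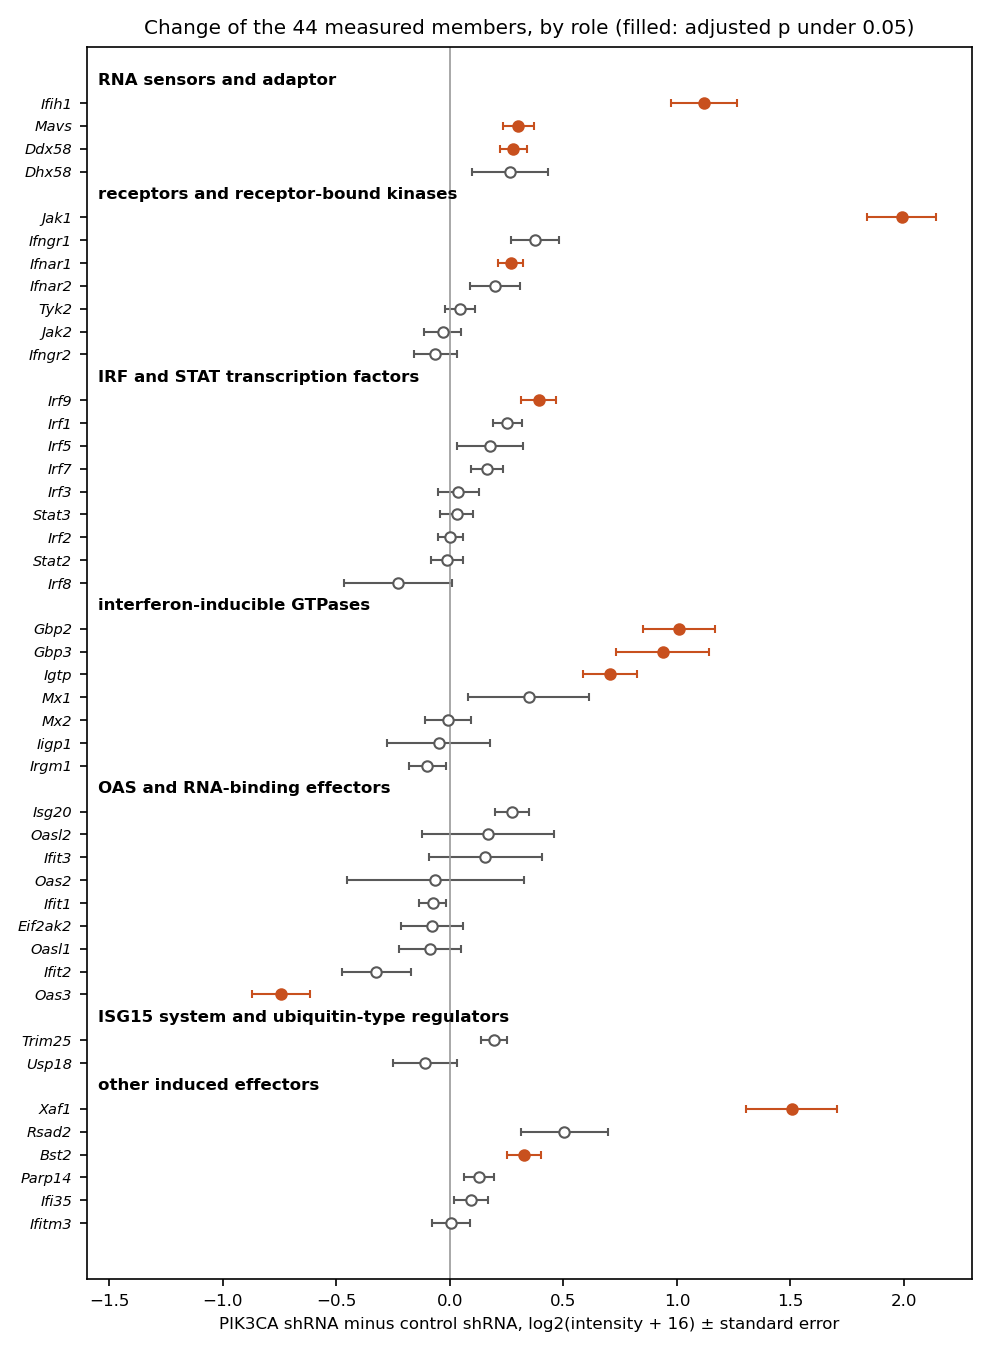
Change of each measured member (horizontal axis, log2(intensity + 16), PIK3CA shRNA less control shRNA, with the limma standard error), grouped by role. Filled points passed adjusted p 0.05; Jak1 (1.99), Xaf1 (1.51) and Ifih1 (1.12) lie farthest right and Oas3 (-0.74) farthest left.

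Among the RNA sensors, Ifih1 had the clearest rise. Ifih1 encodes MDA5, the helicase that binds long double-stranded RNA. Its intensity was 580, 469 and 473 on the 3 PIK3CA shRNA arrays, against 267, 193 and 217 on the control shRNA arrays. Every PIK3CA shRNA array was above every control shRNA array. The means were 507 ± 63.3 and 226 ± 37.8 (SD, n = 3 each), with a change of 1.12 ± 0.14 (SE, limma adjusted p = 0.00987). The call held in all 20 alternatives tried, over a range of changes from 0.92 to 1.24. Ifih1 lies on chromosome 2, where genes above the median brightness had a median change of 0.20, and with chromosome medians removed, an alternative added after seeing the data, its change was 0.92.

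The promoter of Ifih1 is shown because its only ISRE-type match lies just after the annotated start. The window runs from 250 bases before to 50 bases after the RefSeq start (GRCm38.p6, chr2:62646206-62646505, minus strand), and capitals mark letters of the form GAAA, any 2 bases, GAAA, searched on both strands.
Ifih1 promoter: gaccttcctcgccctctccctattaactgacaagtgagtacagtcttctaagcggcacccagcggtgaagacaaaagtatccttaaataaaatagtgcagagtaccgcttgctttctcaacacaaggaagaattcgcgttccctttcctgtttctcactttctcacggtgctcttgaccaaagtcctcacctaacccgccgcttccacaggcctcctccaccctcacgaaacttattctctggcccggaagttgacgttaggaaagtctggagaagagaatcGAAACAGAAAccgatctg
Across the RefSeq table, 3.99% of 27025 genes had a window with these ISRE-type letters and 9.55% had one with the GAS-type letters TTCNNNGAA, which read the same on both strands. Of the 44 members, 37 had a window in the table. Among these, 15 (40.5%) held the ISRE-type letters and 12 (32.4%) the GAS-type letters, in a list made largely of known interferon targets. The ISRE-type letters were in 7 of the 12 called members and in 8 of the 25 others with a window, and the GAS-type letters in 3 of the 12 and in 9 of the 25. A match is a run of letters and says nothing of binding in these cells.

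Ddx58, which encodes the 5′-triphosphate RNA sensor RIG-I, was at 756, 813 and 825 in PIK3CA shRNA cells and at 652, 647 and 663 in control shRNA cells. The groups were separate but close, and the change of 0.28 was near the threshold (limma adjusted p = 0.0416). Its other 2 probe sets also had positive changes, of 0.21 and 0.76, and passed in neither case. Mavs, the adaptor that both helicases engage, was at 1555, 1698 and 1733 in PIK3CA shRNA cells and at 1381, 1365 and 1289 in control shRNA cells. It rose by 0.30 (limma adjusted p = 0.0494), and its other probe set, which the array's naming does not mark as able to match further transcripts, rose by 0.46 (adjusted p = 0.0336 over all probe sets). Like Ifih1, Mavs lies on chromosome 2, and with chromosome medians removed its change was 0.11 (limma adjusted p = 0.413). The third helicase gene, Dhx58, whose product LGP2 lacks the signalling domains of the other two, read 229 ± 40.9 in PIK3CA shRNA cells and 188 ± 31.1 in control shRNA cells (SD, n = 3 each) with overlapping groups.

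The largest change of any member was in a receptor kinase. Jak1, which serves both type I and type II interferon receptors and many cytokine receptors, was at 309, 296 and 294 in PIK3CA shRNA cells, against 60.5, 82.8 and 50.5 in control shRNA cells. The PIK3CA shRNA arrays lay close together and far above the control shRNA arrays. Jak1 rose by 1.99 ± 0.15 (SE, limma adjusted p = 0.00206), to 464% of the control intensity. All 3 of its probe sets rose. The second read 378 ± 23.4 in PIK3CA shRNA cells and 33.5 ± 18.5 in control shRNA cells, and the dimmest read 106 ± 44.4 in PIK3CA shRNA cells and 7.05 ± 2.07 in control shRNA cells (SD, n = 3 each), where it was below the pseudocount. Their changes were 3.07 and 2.35, with adjusted p-values over all probe sets of 0.00684 and 0.00979. Of the 10 tested genes nearest to Jak1 on chromosome 4, 5 on each side, 5 rose and 1 fell. Of all tested genes on chromosome 4, 11% were called in either direction.

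The Jak1 promoter window (GRCm38.p6, chr4:101265174-101265473, minus strand) is shown as that of the member with the largest rise. It held neither the ISRE-type nor the GAS-type letters, so it has no capitals.
Jak1 promoter: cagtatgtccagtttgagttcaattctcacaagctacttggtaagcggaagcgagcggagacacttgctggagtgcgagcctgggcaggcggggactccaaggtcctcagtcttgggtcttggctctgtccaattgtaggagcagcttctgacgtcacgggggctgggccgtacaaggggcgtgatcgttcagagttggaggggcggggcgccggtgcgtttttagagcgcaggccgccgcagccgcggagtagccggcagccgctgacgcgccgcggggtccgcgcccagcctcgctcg

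The other receptor-bound kinases did not pass. Jak2, the partner of JAK1 at the type II receptor, averaged 2861 ± 215 in PIK3CA shRNA cells and 2924 ± 165 in control shRNA cells (SD, n = 3 each), and Tyk2, its partner at the type I receptor, averaged 587 ± 13.7 in PIK3CA shRNA cells and 569 ± 32.1 in control shRNA cells. Their changes were -0.03 and 0.04. Ifnar1, a chain of the type I interferon receptor, was at 777, 819 and 816 in PIK3CA shRNA cells and at 670, 663 and 661 in control shRNA cells. It rose by 0.27 (limma adjusted p = 0.0350). With chromosome medians removed its change was 0.23 (limma adjusted p = 0.0663). With the mean of its probe sets it was 0.20 (limma adjusted p = 0.367). Its dimmer probe set read 107 ± 12.6 in PIK3CA shRNA cells and 98.9 ± 29.0 in control shRNA cells and did not pass. The partner chain gene Ifnar2 did not pass by its brightest probe set (0.20, limma adjusted p = 0.337). A second Ifnar2 probe set, one that the array's naming marks as able to match other transcripts, rose by 0.44 (adjusted p = 0.0427 over all probe sets), at 504 ± 24.1 in PIK3CA shRNA cells and 368 ± 22.2 in control shRNA cells. For the type II receptor, Ifngr1 read 2649, 2672 and 2583 in PIK3CA shRNA cells and 1870, 1893 and 2366 in control shRNA cells. Those groups did not overlap, but control shRNA replicate 3 lay well above the other control arrays and the change of 0.37 did not pass (limma adjusted p = 0.0880). Without that array Ifngr1 passed. Ifngr2, the second chain, was at -0.06.

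**Figure D2:**
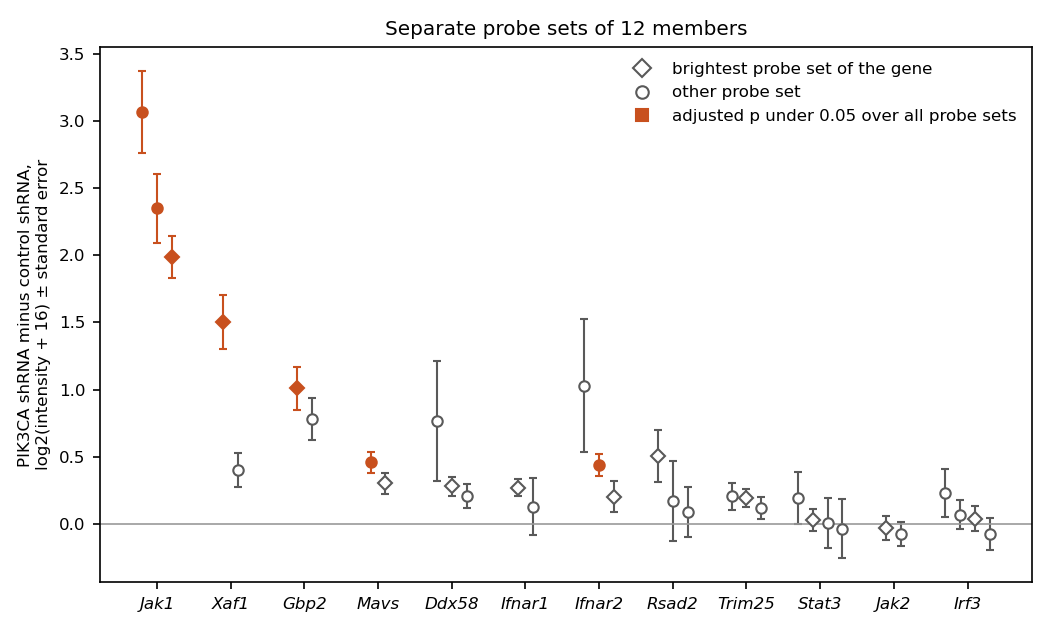
Change of each separate probe set of 12 members (vertical axis, log2(intensity + 16), PIK3CA shRNA less control shRNA, with the limma standard error over all probe sets). The 12 were picked without a fixed rule from the 22 members with more than 1 probe set, so they do not stand for the others. All 3 Jak1 probe sets passed, at 1.99, 2.35 and 3.07, while 1 of 2 passed for Xaf1, Gbp2 and Mavs.

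Of the 9 transcription factor genes, 1 passed, Irf9, a share of 11.1% beside the 11.5% of all genes. Irf9 encodes the DNA-binding partner of STAT proteins in the complex that binds the ISRE. It was at 405, 394 and 404 in PIK3CA shRNA cells and at 333, 289 and 285 in control shRNA cells. It rose by 0.39 (limma adjusted p = 0.0325) with no overlap between groups. Irf1, an early factor induced by type II interferon, read 1145 ± 9.82 in PIK3CA shRNA cells and 960 ± 53.1 in control shRNA cells (SD, n = 3 each). Its groups did not overlap and its change of 0.25 missed the threshold (limma adjusted p = 0.0631). Irf7, the factor that amplifies type I interferon production, read 180 ± 11.5 in PIK3CA shRNA cells and 159 ± 6.21 in control shRNA cells, without passing. Stat2, Stat3, Irf2 and Irf3 had changes between -0.01 and 0.04. With chromosome medians removed, Irf2, which lies on chromosome 8, had a change of 0.26 and passed (limma adjusted p = 0.0472). Irf5 and Irf8 were at 0.18 and -0.23 with overlapping groups.

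Among interferon-inducible GTPases, 2 of the guanylate-binding proteins and 1 immunity-related GTPase rose, and neither Mx gene passed. Gbp2, a guanylate-binding protein that coats microbe-containing vacuoles, was at 184, 127 and 146 in PIK3CA shRNA cells and at 66.8, 78.6 and 56.9 in control shRNA cells. It rose by 1.01 ± 0.16 (SE, limma adjusted p = 0.0169). Its second probe set read 110 ± 15.8 in PIK3CA shRNA cells and 57.6 ± 11.6 in control shRNA cells (SD, n = 3 each), with an adjusted p of 0.0546 over all probe sets. Without PIK3CA shRNA replicate 3 or control shRNA replicates 1 or 3 the adjusted p of Gbp2 was 0.0606, 0.0636 and 0.0578. Gbp3, a related guanylate-binding protein, was dim, at 32.3, 61.3 and 39.7 in PIK3CA shRNA cells and at 13.4, 11.6 and 20.5 in control shRNA cells. Its groups did not overlap, and it rose by 0.94 (limma adjusted p = 0.0428). The guanylate-binding protein genes resemble each other in sequence, so shared signal between their probe sets cannot be told apart here.

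Igtp, an immunity-related GTPase of the vacuole defence, was at 333, 367 and 332 in PIK3CA shRNA cells and at 244, 185 and 190 in control shRNA cells. It rose by 0.70 (limma adjusted p = 0.0207). It kept the call without control shRNA replicate 1 (limma adjusted p = 0.0148) and lost it without each other array, with adjusted p up to 0.0716. Its relative Irgm1, a regulator of the same family, did not pass, at 1237 ± 13.1 in PIK3CA shRNA cells and 1330 ± 118 in control shRNA cells (SD, n = 3 each). Iigp1, an effector of that family, averaged 244 in PIK3CA shRNA cells and 246 in control shRNA cells, with overlapping groups. The dynamin-like antiviral genes Mx1 and Mx2 were dim, at 37.9 ± 16.3 and 21.6 ± 3.92 in PIK3CA shRNA cells and 25.7 ± 8.86 and 21.7 ± 2.41 in control shRNA cells, and neither passed.

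The promoters of Gbp2 and Igtp are shown because they hold motif letters close before the start of GTPase genes that rose. Irgm1, a GTPase gene that did not pass, also holds 2 ISRE-type matches, which begin 30 and 24 bases before its start. In Gbp2 (GRCm38.p6, chr3:142620413-142620712, plus strand) the ISRE-type match begins 59 bases before the start. In Igtp (chr11:58199306-58199605, plus strand) a GAS-type match begins 45 bases and an ISRE-type match 34 bases before the start, without overlap. Capitals mark these letters.
Gbp2 promoter: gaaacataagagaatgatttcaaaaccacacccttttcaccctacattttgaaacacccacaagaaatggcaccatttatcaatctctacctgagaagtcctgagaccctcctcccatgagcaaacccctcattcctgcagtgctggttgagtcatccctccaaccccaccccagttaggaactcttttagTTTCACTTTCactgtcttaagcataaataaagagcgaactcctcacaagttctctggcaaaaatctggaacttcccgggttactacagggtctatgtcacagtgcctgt
Igtp promoter: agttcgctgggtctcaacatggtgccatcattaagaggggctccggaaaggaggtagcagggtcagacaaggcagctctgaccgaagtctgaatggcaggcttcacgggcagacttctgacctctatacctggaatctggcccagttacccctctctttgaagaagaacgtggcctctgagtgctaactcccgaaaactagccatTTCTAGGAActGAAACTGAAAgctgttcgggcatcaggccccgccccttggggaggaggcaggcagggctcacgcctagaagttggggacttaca

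The only member that fell acts on RNA defence. Oas3, a synthase of the 2-5A messenger that activates RNase L, was at 95.2, 112 and 116 in PIK3CA shRNA cells and at 210, 160 and 206 in control shRNA cells. Every PIK3CA shRNA array was below every control shRNA array. Oas3 fell by 0.74 on the log2 scale, SE 0.13 (limma adjusted p = 0.0225). It kept the call without control shRNA replicate 2 and lost it without each other array, with adjusted p up to 0.0760. Oas3 lies on chromosome 5, where genes above the median brightness had a median change of -0.15, and with chromosome medians removed its change was -0.59 (limma adjusted p = 0.0502). The neighbouring Oas2 was at -0.07 with wide overlap, and Oasl1 and Oasl2 were at -0.09 and 0.17.

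Ifit1, Ifit2 and Ifit3, which bind viral RNA and are among the strongest type I interferon targets, did not pass. Ifit1, Ifit2 and Ifit3 averaged 71.3 ± 3.68, 317 ± 31.1 and 98.4 ± 40.7 in PIK3CA shRNA cells, and 76.0 ± 1.46, 403 ± 71.2 and 82.9 ± 7.97 in control shRNA cells (SD, n = 3 each). Their changes were -0.08, -0.32 and 0.16, with overlap in each. Eif2ak2, the kinase PKR that halts translation on double-stranded RNA, was at -0.08. Isg20, an RNA exonuclease, read 680 ± 48.9 in PIK3CA shRNA cells and 559 ± 23.8 in control shRNA cells without overlap, and missed the threshold (0.27, limma adjusted p = 0.0833).

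The promoters of Oas3 and Ifit1 are shown beside these values because both hold ISRE-type letters, as those of Gbp2 and Igtp do, while Oas3 fell and Ifit1 did not pass. The Oas3 match begins 75 bases before the start (GRCm38.p6, chr5:120777610-120777909, minus strand). Those of Ifit1 begin 104 and 85 bases before it (chr19:34640639-34640938, plus strand).
Oas3 promoter: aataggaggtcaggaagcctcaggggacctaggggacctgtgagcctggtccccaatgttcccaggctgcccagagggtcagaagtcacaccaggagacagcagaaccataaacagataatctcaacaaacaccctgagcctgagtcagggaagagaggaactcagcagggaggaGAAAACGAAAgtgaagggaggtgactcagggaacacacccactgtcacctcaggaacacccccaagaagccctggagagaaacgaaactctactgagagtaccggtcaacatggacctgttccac
Ifit1 promoter: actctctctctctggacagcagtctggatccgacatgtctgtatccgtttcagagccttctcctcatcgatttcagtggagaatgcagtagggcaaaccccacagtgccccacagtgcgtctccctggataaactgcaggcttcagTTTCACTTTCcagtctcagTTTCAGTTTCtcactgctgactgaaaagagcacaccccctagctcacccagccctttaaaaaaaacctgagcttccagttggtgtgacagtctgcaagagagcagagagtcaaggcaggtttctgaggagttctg

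In the remaining roles, Xaf1 had the second largest change of all members. Xaf1 encodes an interferon-induced antagonist of the caspase inhibitor XIAP. It was at 273, 246 and 258 in PIK3CA shRNA cells and at 109, 83.7 and 56.7 in control shRNA cells. The groups were well apart, and Xaf1 rose by 1.51 ± 0.20 (SE, limma adjusted p = 0.0105). Its second, dimmer probe set read 77.4 ± 7.16 in PIK3CA shRNA cells and 55.1 ± 9.28 in control shRNA cells (SD, n = 3 each), a change of 0.40 that did not pass, and the mean of both rose by 0.95. Bst2, which encodes tetherin, a membrane protein that holds budding virions, was at 374, 370 and 367 in PIK3CA shRNA cells and at 316, 294 and 268 in control shRNA cells. It rose by 0.33 (limma adjusted p = 0.0488). Bst2 lies on chromosome 8, where genes above the median brightness had a median change of -0.25, and with chromosome medians removed it rose by 0.58.

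Rsad2, the antiviral enzyme viperin, read 179 ± 30.3 in PIK3CA shRNA cells and 123 ± 28.1 in control shRNA cells (SD, n = 3 each). Its change of 0.50 did not pass (limma adjusted p = 0.172). Usp18, the protease that removes ISG15 and restrains type I signalling, was at -0.11. Trim25, the ubiquitin ligase that assists RIG-I, read 2257 ± 34.5 in PIK3CA shRNA cells and 1973 ± 71.5 in control shRNA cells, without overlap and without passing (0.19, limma adjusted p = 0.0988). Parp14, Ifi35 and Ifitm3 had changes from 0.01 to 0.13, none of them past the threshold.

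**Figure D3:**
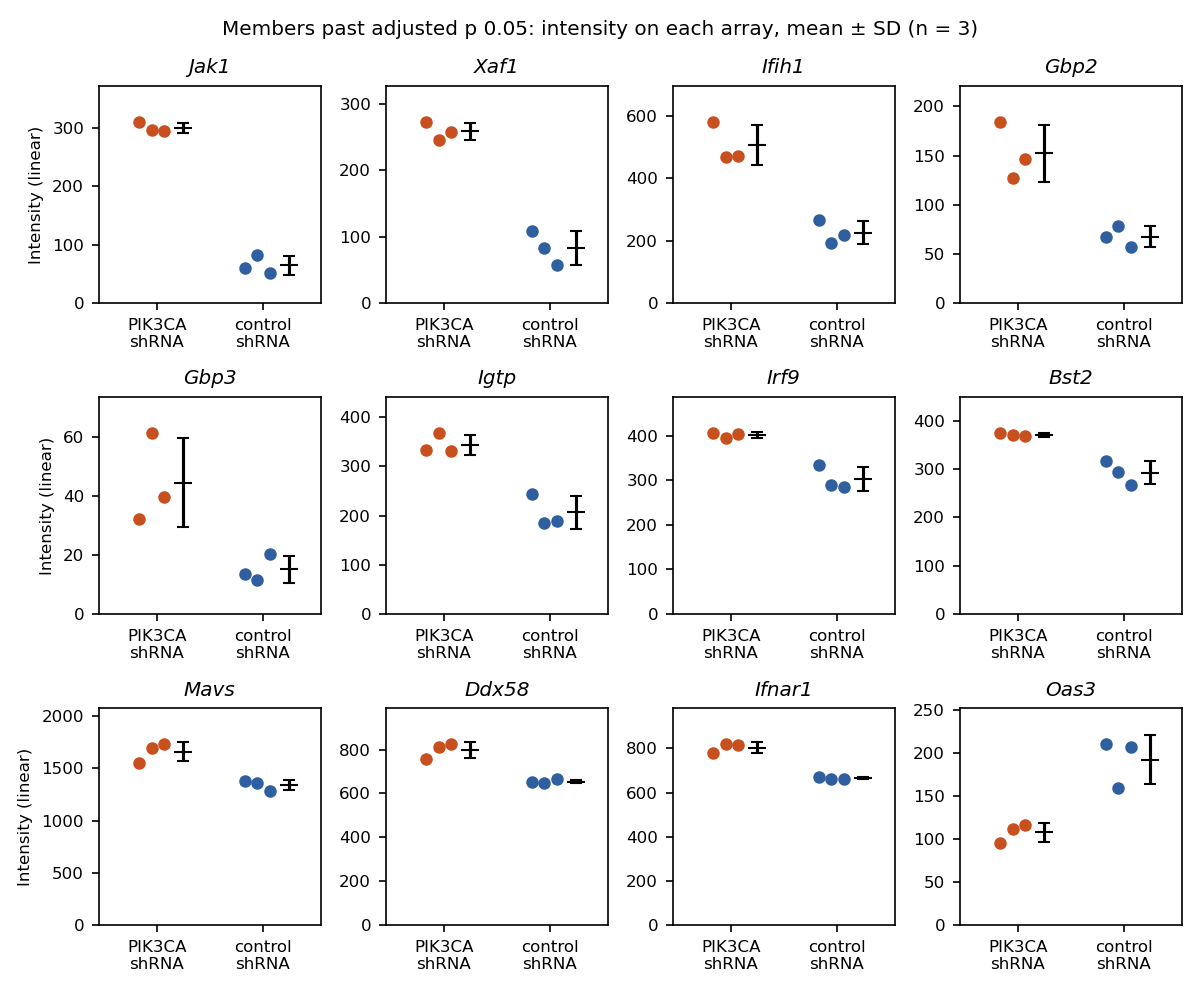
Intensity on each array (vertical axes, linear, starting at 0) of the 12 members past adjusted p 0.05, with the mean and SD of 3 arrays beside the points. PIK3CA shRNA arrays are above all control shRNA arrays in 11 panels, from Jak1 (means 299.7 and 64.6) to Ifnar1 (804 and 665), and below them for Oas3 (108 and 192).

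Interferon-stimulated genes outside the 46 were examined as a further list. It too was chosen with earlier results of these data known, so its counts are not independent support. Of 45 such genes measured, 8 rose and 0 fell by limma (17.8% called, beside 11.5% of all genes), and their median change was 0.12. At an unadjusted limma p under 0.05 were 14 of the 45, and 4706 of all 18193 genes. Samd9l, an antiviral translation inhibitor, averaged 799 ± 35.4 in PIK3CA shRNA cells and 354 ± 14.8 in control shRNA cells (limma adjusted p = 0.000745). The GTPase genes Irgm2 and Gbp7 averaged 227 ± 18.5 and 360 ± 44.8 in PIK3CA shRNA cells and 88.3 ± 13.0 and 145 ± 28.6 in control shRNA cells. Their changes of 1.22 and 1.23 passed (limma adjusted p = 0.00372 and 0.00997). Trim21, an intracellular antibody receptor, rose by 0.69. The remaining 4 rises were in Ifi47 (1.15), another immunity-related GTPase, Ifi27 (0.81), Lgals9 (0.70) and Lgals3bp (0.30), named after their values were seen. The type I targets Cmpk2 and Rtp4, also named after their values were seen, were at -0.13 each, and both were dim.

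Genes that act before and after the members in the pathway were counted in the same way, in lists also chosen with earlier results known. Of 10 measured interferon ligand genes, 0 rose and 1 fell by limma (10% called, beside 11.5% of all genes). Of these 10 genes, 9 were dimmer than the median gene in both groups. Ifnb1, the first interferon made after RNA sensing, was at 62.1, 93.4 and 89.8 in PIK3CA shRNA cells and at 70.0, 72.7 and 76.3 in control shRNA cells, with overlapping groups. The ligand that fell was Ifnz, a type I interferon gene of rodents, at 320 ± 17.4 in PIK3CA shRNA cells and 462 ± 40.5 in control shRNA cells (SD, n = 3 each, limma adjusted p = 0.0222). Of 19 other nucleic acid sensing genes, 1 rose and 0 fell (5.26% called, below the share of all genes). The gene that rose was Ikbke, the kinase that phosphorylates IRF factors downstream of MAVS. It was at 187, 138 and 265 in PIK3CA shRNA cells and at 26.0, 56.5 and 69.1 in control shRNA cells, a change of 1.69 (limma adjusted p = 0.0337).

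Of 19 regulators of interferon signalling, 2 rose and 3 fell (26.3% called, beside 11.5% of all genes). The tyrosine phosphatase gene Ptpn1, whose product acts on JAK kinases, rose by 0.46 (limma adjusted p = 0.00916). Il10rb, which encodes a chain shared by the interleukin-10 and type III interferon receptors, rose by 0.40 (limma adjusted p = 0.0133). Pias3, an inhibitor of STAT3, and Ptpn11, the phosphatase SHP2, fell by 0.44 and 0.33 on the log2 scale, and the third that fell, Pias2, named after its value was seen, was at -0.31. Socs3, the feedback inhibitor of JAK signalling, did not pass (0.45, limma adjusted p = 0.0679) and was named after its value was seen.

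**Figure D4:**
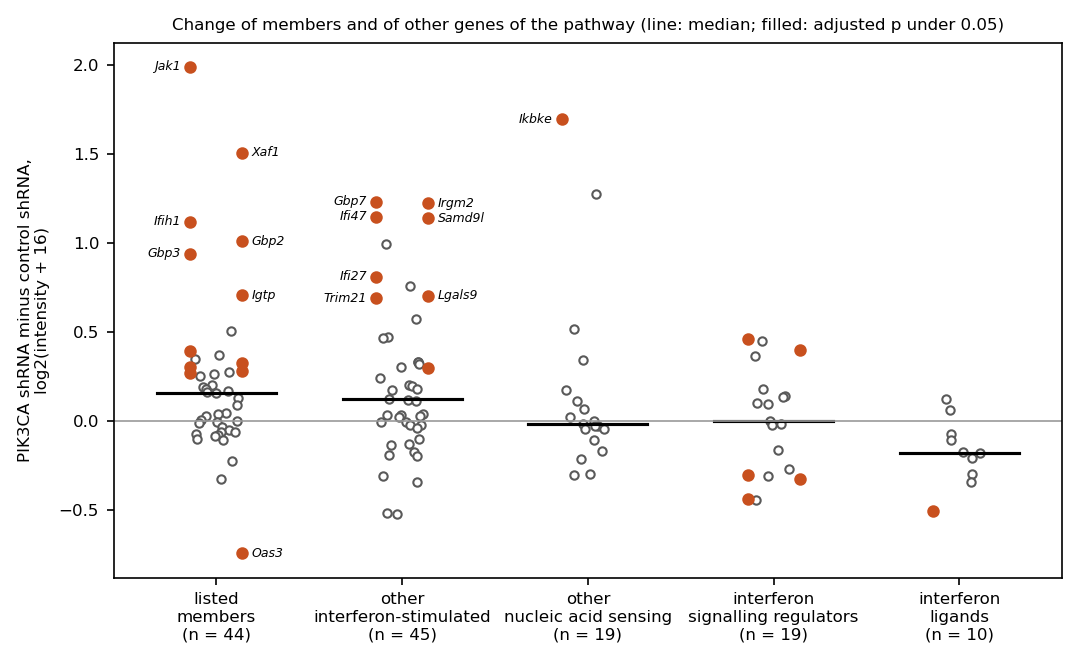
Change of each gene (vertical axis, log2(intensity + 16), PIK3CA shRNA less control shRNA) for the 44 measured members and 4 further lists of the pathway, with the median as a line. The medians are 0.16 for members, 0.12 for other interferon-stimulated genes and -0.18 for ligands, and Ikbke (1.69) is the highest of the other sensing genes.

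Leukocytes express many of these genes, so their markers are given beside the counts. Of 18 measured leukocyte markers, 2 rose and 0 fell (11.1% called, beside 11.5% of all genes). These were the Fc receptor gene Fcgr3 (1.47) and Cd14 (0.65). The summed intensity of the 18 was 3133 to 3795 on PIK3CA shRNA arrays and 2443 to 2773 on control shRNA arrays, and 15 of the 18 were dimmer than the median gene in both groups. Without Fcgr3 and Cd14 the sum of the other 16 overlapped, at 1315 to 1645 on PIK3CA shRNA arrays and 1288 to 1620 on control shRNA arrays. Those 2 were left out because they had passed, so the overlap of the rest was largely set by that choice. None of the 18 is listed at 0, and 1 of them was below the pseudocount on every array. Ptprc was at -0.03, the T cell gene Cd3e at 0.05 and the macrophage gene Csf1r at -0.04, none past the threshold. These 3 were named after their values were seen. Other markers that did not pass lay farther from 0, with Cd79a lowest at -0.94 (limma adjusted p = 0.153) without overlap between groups. The part of leukocytes in the result was not tested. In such bulk RNA, more cells with a programme and more RNA per cell cannot be told apart.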

How the data were processed

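RNA from PIK3CA shRNA and control shRNA 344SQ cells was read on Affymetrix arrays, 3 per group. The authors deposited 1 table of probe set intensities on a linear scale, without detection calls, with a normalization that the labels do not name. Control probe sets (64) were left out, and 34945 probe sets carried 1 gene symbol in the platform annotation, 932 several and 9160 none. Each array was scaled to a common median and log2(intensity + 16) was tested with limma 3.58.1 over 18193 genes, each by its brightest probe set, with Benjamini-Hochberg adjustment at 0.05. The members and lists were chosen with earlier results of these data known. The naming rule took all members, Pik3ca and, in each further list, up to 4 genes past the threshold with the smallest adjusted p. Other genes, among them Krt8, Nkx2-1, Sftpc, Ptprc, Cd3e, Csf1r and Ifnb1, were named outside this rule after their values were seen. Promoter windows and chromosomes came from RefSeq tables (GRCm38.p6). The fit was tested on simulated data. The number of arrays limits precision, and 3 against 3 cannot give an exact permutation p below 0.1. Alternatives covered scaling, probe set choice, pseudocount, variance model, a replicate block and each array left out.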

Additional observations from a re-analysis of the deposited data

How the results depend on the processing

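Over all genes, 2093 passed the threshold, and 413 with the replicate number as a block, 3192 with a robust prior that follows intensity, 636 at an adjusted p of 0.01, and 945 to 1138 with 1 array left out. Members that rose numbered 11, and 2 with the block, 6 when the most variable probe set (by interquartile range) stood for a gene, 7 in the fit over every probe set, 2 at adjusted p 0.01, and 3 to 5 with 1 array left out. They numbered 15 with the robust prior, where Irf1, Isg20, Ifngr1 and Trim25 were added, 12 with dim genes left out and with a pseudocount of 64, and 8 to 11 in the other scalings, probe set means, array weights, pseudocount 1 and chromosome medians removed. The 1 member that fell became 0 with the block, at adjusted p 0.01 and with chromosome medians removed, an alternative chosen after the data were seen, and 0 to 1 with 1 array left out. Pik3ca kept its call throughout, from -0.95 to -0.92 with 1 array left out. No called member changed sign in any alternative run. Same-numbered arrays did not deviate together (correlations 0.0586, -0.00744 and -0.0234), so the replicate numbers were not taken as pairs. Fits with fewer arrays or the block have fewer residual degrees of freedom. Members near the pseudocount, such as Gbp3, have changes that depend on it, from 0.45 to 1.48 over the alternatives.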

Other observations

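Genes beside Jak1 on chromosome 4 were examined after its value was seen. Of the 10 nearest tested genes, 5 on each side, the median change was 0.47. Efcab7 averaged 110 ± 4.34 in PIK3CA shRNA cells and 9.79 ± 2.44 in control shRNA cells, and Leprot, whose product regulates receptor traffic, averaged 787 ± 56.7 in PIK3CA shRNA cells and 163 ± 6.33 in control shRNA cells (SD, n = 3 each). Their changes were 2.29 and 2.16 (limma adjusted p = 0.000179 and 0.000163). The adenylate kinase gene Ak4, Cachd1 and the phosphoglucomutase gene Pgm1 rose by 1.36, 0.91 and 0.80, Ube2u fell by 0.46 on the log2 scale, and Lepr was at -0.36 without passing.

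Beside Gbp2 on chromosome 3, 4 of 10 neighbours rose, namely Gbp7 (1.23), Gbp2b (1.07), Gbp3 (0.94) and Pdlim5 (0.39). Of all tested genes on chromosome 3, 12.2% were called in either direction. Gbp2b averaged 307 ± 7.38 in PIK3CA shRNA cells and 138 ± 13.3 in control shRNA cells (SD, n = 3 each, limma adjusted p = 0.00196). Of the 10 neighbours of Oas3, which include Oas2 and 5 genes of the Oas1 family, 0 rose and 0 fell by limma, with a median change of 0.12. On chromosome 5, 15.6% of tested genes were called.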
